A study of Mus musculus with 8 samples.

Results

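Calcium store genes code for the proteins that load, buffer and empty the calcium reservoir of the endoplasmic reticulum, called the sarcoplasmic reticulum in muscle. The group held 10 genes: the calsequestrins Casq1 and Casq2, the ryanodine receptors Ryr1, Ryr2 and Ryr3, the IP3 receptors Itpr1, Itpr2 and Itpr3, the calcium pump gene Atp2a2 and its regulator Pln. A member was measured where a row of the array table named that gene and no other, and with several such rows the one with the highest mean over the 8 arrays was to be used. This gave 8 of the 10 members, among 30791 genes with a row of their own, and each of the 8 had 1 such row, so no measured value entered the choice of row. The row of Itpr3 also named a microRNA gene and Itpr1 was not named in the platform annotation used, so neither is described. The genes were chosen by function and with earlier results of these data known, among them the lower deposited log2 values of Casq2 in CD90+ cells, so Casq2 is described here without a test.

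RNA came from colon fibroblasts of wild-type C57BL/6J mice, sorted as lacking Epcam, CD45 and CD31 and as carrying gp38, and then split by CD90 into a CD90- and a CD90+ population. The populations had 4 arrays each, from 4 mice in all, and no label says which arrays share a mouse, gives an age or a sex, or names a treatment. The comparison asks how the CD90+ population differs from the CD90- one. Arrays keep the numbers of their titles: 13, 15, 17 and 19 are CD90- and 14, 16, 18 and 20 are CD90+. Values are log2 expression as the authors deposited it, given as mean ± SD (n = 4 arrays), and differences are CD90+ minus CD90- in log2 units. The p-values measure the spread between these arrays. The largest deposited value was 19.9, beyond what a 16-bit scanner can record as log2 intensity, and folds are therefore given on the deposited scale. Levels of different genes are not compared, since each gene has its own probes.

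In muscle, a small calcium signal opens ryanodine receptors, calcium bound to calsequestrin leaves the store, and the SERCA pump returns it, held back by phospholamban, the product of Pln. In most other cells, including fibroblasts, the store is emptied mainly through IP3 receptors, which open when phospholipase C makes IP3. In the gut wall, smooth muscle and interstitial cells of Cajal use such calcium signals in contraction and pacing.

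Promoter sequence was at hand for 7 of the 10 members, from RefSeq (GRCm38.p6). The 250 bases just upstream of the annotated start are shown for 3 of them: the calsequestrins, of which 1 was bright in CD90- cells and the other dim on every array, and Itpr2, the measured member with the opposite difference. They lie at chr3:102086165-102086414 (plus strand, Casq2), chr1:172219896-172220145 (minus strand, Casq1) and chr6:146502224-146502473 (minus strand, Itpr2), and capitals mark every match to the motifs searched.
Casq2: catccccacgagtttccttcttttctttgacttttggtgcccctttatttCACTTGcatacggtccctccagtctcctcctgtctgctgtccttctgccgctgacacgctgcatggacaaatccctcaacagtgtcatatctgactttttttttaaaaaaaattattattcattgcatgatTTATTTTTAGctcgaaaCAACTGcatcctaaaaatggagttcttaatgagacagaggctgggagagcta
Casq1: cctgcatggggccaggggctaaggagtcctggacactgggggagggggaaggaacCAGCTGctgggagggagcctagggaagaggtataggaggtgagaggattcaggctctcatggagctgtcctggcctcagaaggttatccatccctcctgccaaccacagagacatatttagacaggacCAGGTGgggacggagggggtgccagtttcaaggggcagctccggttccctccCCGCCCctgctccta
Itpr2: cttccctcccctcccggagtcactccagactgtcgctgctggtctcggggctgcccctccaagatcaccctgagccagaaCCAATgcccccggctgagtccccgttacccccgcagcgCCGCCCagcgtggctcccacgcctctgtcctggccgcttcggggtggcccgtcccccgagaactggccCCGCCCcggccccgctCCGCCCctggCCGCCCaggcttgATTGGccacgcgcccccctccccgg
The 8 motifs were sought on both strands in 32851 windows of this length. The E-box, CANNTG, was in 66.2% of windows, the GC box, GGGCGG, in 32.7%, and the TATA box, TATAAA, in 12.4%. The letters CCAAT were in 33.8%. The SOX core, AACAAT, was in 9.42% and the AP-1 site, TGANTCA, in 6.75%. The MEF2 site was in 2.92% and the CArG box in 1.47%. The Casq2 window held a MEF2 site 69 to 60 bases before the start and E-boxes 200 to 195 and 52 to 47 bases before it. MEF2 factors and the factors that bind E-boxes act in muscle gene expression. The Casq1 window held 2 E-boxes and 1 GC box. The Itpr2 window held 4 GC boxes and 2 matches to CCAAT, and no E-box or MEF2 site. Its share of G and C was 74.4%, against 41.6% for Casq2, 61.6% for Casq1 and a median of 52.4% over all windows. No marked match overlapped another in these 3 windows, and a match is a string of letters here, not a measured binding site.

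Before the results, the arrays were checked. Thy1, which codes for CD90, lay between 5.46 and 5.57 on the CD90- arrays and between 7.03 and 8.11 on the CD90+ arrays. Arrays 13 and 14 stood apart: Xist was at 16.16 and 16.27 there and between 5.89 and 9.32 on the other 6, and Uty, a Y-linked gene, was at 5.49 and 5.56 against 9.65 to 10.06. Results are therefore also given without them. The negative control rows of the array had medians of 6.79 to 6.84 on the CD90- and 6.58 to 6.67 on the CD90+ arrays. Their median over all arrays, 6.73, lay above the 5.36 of all transcript clusters, so they are no measure of zero signal. A gene below them may be dim without being absent. The array's 23 background rows had lower medians, 3.2 to 3.33. Fibroblast markers were bright in both populations, with a list mean over 7 measured markers of 15.1 to 15.28 on CD90- and 15.05 to 15.21 on CD90+ arrays.

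Casq2, the calsequestrin of heart and smooth muscle, was the store gene that differed most. It was at 12.6, 11.81, 10.54 and 11.36 on CD90- arrays 13, 15, 17 and 19. On CD90+ arrays 14, 16, 18 and 20 it was at 7.84, 5.9, 5.96 and 5.79. Every CD90- array was above every CD90+ array, and array 14 stood above the other CD90+ arrays. The means were 11.58 ± 0.861 and 6.37 ± 0.982, a difference of -5.2. On the CD90- arrays Casq2 exceeded between 90.6% and 97.5% of the 5222 negative control rows. On arrays 16, 18 and 20 it exceeded 36.5% to 38.1% of them, so a low level there is not told from the signal of these rows. The size of the difference is therefore not exact. Each population spanned 2.06 log2 units in Casq2, more than any other member. With 1 array left out at a time, the difference ran from -5.69 (without array 14) to -4.86 (without array 13), and it was -5.35 without both. In bulk samples such as these, fewer cells that express a gene and less RNA of it per cell cannot be told apart.

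Casq1, the calsequestrin of fast skeletal muscle, was dim on all 8 arrays, between 4.22 and 4.38. It exceeded at most 14.1% of the negative control rows on any array.

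**Figure D1:**
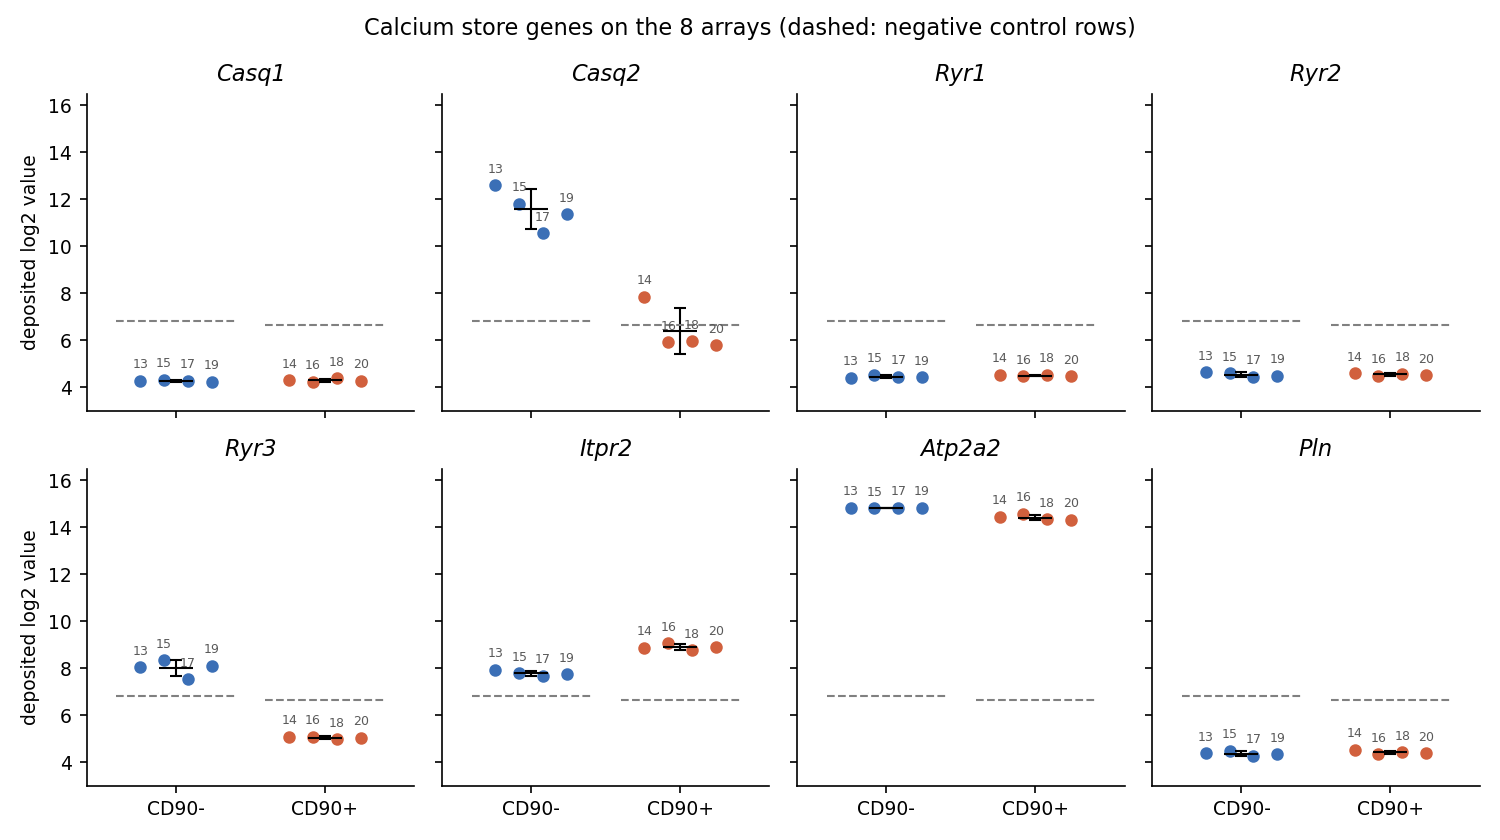
Deposited log2 values of the 8 measured store genes on each array (points, labelled by array number), with the mean and SD of each population (black) and the mean of the negative control medians (dashed). Casq2 and Ryr3 lie above the dashed line on all CD90- arrays, Itpr2 and Atp2a2 on all 8 arrays, and Casq1, Ryr1, Ryr2 and Pln below it on all 8.

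Among the release channels, Ryr3 fell and Itpr2 rose in CD90+ cells. Ryr3, the ryanodine receptor known from brain and smooth muscle, was at 8.05, 8.35, 7.54 and 8.1 on CD90- arrays 13, 15, 17 and 19. It was at 5.08, 5.08, 4.98 and 5.05 on CD90+ arrays 14, 16, 18 and 20. The populations did not overlap, and all 4 CD90+ values lay below the negative control medians. Ryr3 exceeded 61% to 72.2% of the negative control rows on CD90- arrays and 23.3% to 24.5% on CD90+ arrays. The means were 8.01 ± 0.34 and 5.05 ± 0.0443, a difference of -2.96, with array 14 no higher than array 16.

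A gene was tested where it reached the median of all transcript clusters, 5.36, on at least 4 of the 8 arrays. Ryr3 passed through its CD90- arrays alone, as did 63 of the 17260 genes tested, 61 of which were called, so passing itself favoured a difference and the call in that fit is not used. In the fit of all 30791 genes without a filter, of which 16.2% were called, the difference of Ryr3 was -2.96 (SE 0.149, 95% interval -3.3 to -2.63, limma adjusted p = 2.73e-06). Leaving out a CD90- array therefore put it under the filter. Its difference, without a test, ran from -3.12 to -2.85 with 1 array left out and was -2.96 without arrays 13 and 14.

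Itpr2 codes for an IP3 receptor of high IP3 affinity. It was at 7.94, 7.79, 7.69 and 7.74 on CD90- arrays 13, 15, 17 and 19, and at 8.87, 9.06, 8.77 and 8.89 on CD90+ arrays 14, 16, 18 and 20. The populations did not overlap, and all 8 values lay above the negative control medians. The means were 7.79 ± 0.108 and 8.9 ± 0.122, a difference of 1.1 (SE 0.0843, 95% interval 0.91 to 1.29, limma adjusted p = 2.4e-05), or 2.15-fold on this scale. With 1 array left out the difference stayed between 1.05 and 1.15, and it was 1.16 without arrays 13 and 14.

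Ryr1 and Ryr2, the main release channels of skeletal and cardiac muscle, were dim everywhere. Ryr1 lay between 4.4 and 4.53 on CD90- and between 4.46 and 4.52 on CD90+ arrays. Ryr2 lay between 4.44 and 4.63 on CD90- and between 4.49 and 4.59 on CD90+ arrays. The populations overlapped in both genes. So Ryr3 was the only ryanodine receptor row above the negative control median on any of these arrays.

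Atp2a2, which codes for SERCA2, the pump that refills the store, was bright on all 8 arrays. On CD90- arrays 13, 15, 17 and 19 it was at 14.83, 14.82, 14.84 and 14.83. On CD90+ arrays 14, 16, 18 and 20 it was at 14.44, 14.57, 14.34 and 14.32, below all CD90- arrays. It fell from 14.83 ± 0.00942 to 14.42 ± 0.113, a difference of -0.41 (SE 0.0687, 95% interval -0.57 to -0.25, limma adjusted p = 0.00216), or 1.33-fold. After another quantile normalization the difference was -0.4 and was not called (limma adjusted p = 0.169). With 1 array left out it ran from -0.46 to -0.38, and it was -0.42 without arrays 13 and 14.

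Pln, whose product brakes SERCA2 in heart and smooth muscle, was between 4.27 and 4.49 on CD90- and between 4.34 and 4.52 on CD90+ arrays. Casq1, Ryr1, Ryr2 and Pln did not pass the filter. In the fit without a filter, their differences were 0.03, 0.04, 0 and 0.06, with 95% intervals of -0.1 to 0.16, -0.08 to 0.17, -0.14 to 0.15 and -0.1 to 0.21, and none was called (limma adjusted p = 0.828, 0.704, 0.985 and 0.685). Of all genes in that fit, 8.02% were called higher and 8.17% lower. Since these 4 genes exceeded at most 17.5% of the negative control rows on any array, the intervals describe signals low among those rows. They do not show equal RNA levels. The values of these 4 genes, 4.22 to 4.63, lay above the background row medians of 3.2 to 3.33.

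Casq2 and Ryr3 aside, Itpr2 and Atp2a2 were the tested members, and Itpr2 was called higher and Atp2a2 lower. Over all 17260 genes tested, 29.7% were called in either direction, 14% higher and 15.7% lower, so a called gene was common in this comparison. The share of calls that were higher was 47.2%, 37.8% with each array centred on its median and 51.2% after another quantile normalization. Calls lower by at least 2-fold made up 3.43% of genes tested, and calls higher by at least 2-fold, which include Itpr2, 3.78%. Populations did not overlap in 32.3% of genes tested.

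The calcium handling genes around the store were read from 8 lists, of 126 genes in all, 112 measured and 89 tested. Of these, 15 were called higher and 23 lower, beside the 29.7% of all genes. Plcg2 and Orai2 passed the filter through their CD90- arrays alone, as Ryr3 did, and without them 15 rose and 21 fell of 87 tested. With Plcg2 and Orai2 kept, the share called was 66.7% of L-type subunits, 60% of mitochondrial uptake genes and 50% of extrusion genes. It was 47.4% of release channel partners and 47.4% of genes around IP3. Store-operated entry had 33.3% called, luminal buffers 21.4% and pumps and their regulators 20%. The lists are small, with 4 to 19 genes tested in each. The median difference of all genes tested was -0.01. Jph1, Jph2, Fkbp1b, Plce1 and the single cell type markers below were chosen for naming after their values were seen.

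Among pumps and their regulators, 1 of 5 tested genes fell and 0 rose (0 higher by limma at an unadjusted p under 0.05). The gene that fell was Atp2a3, the SERCA3 pump gene, from 10.3 ± 0.853 to 7.99 ± 0.266 (difference -2.31, SE 0.376, limma adjusted p = 0.00188). Mrln and Hrc, which code for a SERCA-inhibiting peptide and a luminal calcium-binding protein of muscle, had differences of -0.18 and 0.21 and were not called (limma adjusted p = 0.38 and 0.181). Without array 16 Hrc was called (difference 0.29, limma adjusted p = 0.0433), making 1 call higher in this list. The list's median difference was -0.02.

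Of 19 tested partners of the release channels and scaffolds of the store membrane, 6 rose and 3 fell, with a median of 0.13. The genes of the TRIC channels, which let potassium balance the charge of calcium release, rose: Tmem38a from 8.53 ± 0.171 to 9.1 ± 0.0706 and Tmem38b from 6.1 ± 0.243 to 6.87 ± 0.0872 (limma adjusted p = 0.00177 and 0.00134). Camk2d, a calcium-dependent kinase that acts on ryanodine receptors and phospholamban, fell from 10.63 ± 0.109 to 9.96 ± 0.0718 (limma adjusted p = 0.000196). The junctophilins hold the store membrane against the surface membrane. Jph1 fell by 1.19 and Jph2 by 0.62 (limma adjusted p = 0.0102 and 0.00852), while Fkbp1b, a stabiliser of the ryanodine receptor, rose by 0.45 (limma adjusted p = 0.0117). Tmem38b and Fkbp1b were above the negative control median on no CD90- array. Jph1 was above it on 1 CD90+ array and Jph2 on 2, so the sizes for these genes are not exact. Sri, the sorcin gene, was at 11.15 ± 0.0299 and 11.21 ± 0.086 and was not called.

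Genes around IP3 went both ways: of 19 tested, 4 were called higher and 5 lower, with a median of 0.02, or 4 lower without Plcg2. Phospholipase C genes, whose enzymes make IP3, gave the greatest differences. Plcb1, an isoform driven by G protein-coupled receptors, rose from 6.37 ± 0.353 to 9.52 ± 0.123 (difference 3.15, SE 0.164), and Plce1, an isoform driven by small GTPases, from 6.43 ± 0.653 to 9.81 ± 0.485 (difference 3.38, SE 0.343). Their limma adjusted p-values were 2.71e-06 and 0.000129. On most CD90- arrays these genes lay below the negative control median, so the sizes are not exact. Plcg2 was at 5.91 ± 0.0772 and 4.88 ± 0.11, below the negative control median on all 8 arrays, and in the fit without a filter its difference was -1.02 (limma adjusted p = 2.12e-05). Itpripl2, an IP3 receptor-interacting protein-like gene, fell from 11.22 ± 0.119 to 9.68 ± 0.178, and Ahcyl1, which codes for the IP3 receptor-binding protein IRBIT, fell by 0.39 (limma adjusted p = 0.00497). The count of 5 was 3 without array 15, 17 or 19, where Plcg2 also missed the filter.

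Of 14 tested luminal buffers and chaperones of the general endoplasmic reticulum, 3 rose and 0 fell (0 lower by limma at an unadjusted p under 0.05), with a median of 0.2. The share called was 21.4%, under the 29.7% of all genes. Selenon, a redox regulator of SERCA, rose by 0.7, Pdia6 by 0.51 and Rcn3 by 0.36 (limma adjusted p = 0.00228, 0.0189 and 0.0167). Pdia6 lost its call without array 18 or 20 (limma adjusted p = 0.0544 and 0.0557), and Rcn3 after another quantile normalization (difference 0.34, limma adjusted p = 0.158). Hsp90b1, the GRP94 chaperone gene, was at 16.13 ± 0.272 and 16.33 ± 0.217 and was not called (limma adjusted p = 0.356), but was with a term for arrays 13 and 14 (limma adjusted p = 0.0388). The list's count of genes that rose was 5 without arrays 13 and 14 and 6 with a term for them.

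Of 12 tested genes of store-operated entry, the route by which an empty store draws calcium from outside, 4 were called lower and 0 higher (1 higher by limma at an unadjusted p under 0.05, and 1 call higher after another quantile normalization or with array weights), with a median of -0.12, or 3 lower without Orai2. Saraf, an inhibitor of this entry, fell from 10.86 ± 0.123 to 10.2 ± 0.0676 (limma adjusted p = 0.000286). Orai2 was at 5.68 ± 0.1 and 5.22 ± 0.155, below the negative control median on all 8 arrays, and in the fit without a filter its difference was -0.46 (limma adjusted p = 0.00791). Orai3 fell by 0.31 (limma adjusted p = 0.0317), and lost its call after another quantile normalization (limma adjusted p = 0.109) or without any 1 of arrays 15 to 20 (limma adjusted p = 0.0675 to 0.0833). Stim2, a store sensor, was at 10.89 ± 0.0329 and 10.96 ± 0.186 and was not called. The count of 4 was 1 without array 15, 17 or 19, and 2 without array 13, 18 or 20 or without both 13 and 14; Orai2 missed the filter wherever a CD90- array was left out.

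Several surface channel and extrusion genes fell. Of 6 tested L-type channel subunits, 3 fell and 1 rose (2 rose without array 15 or 18, or with the filter at the negative control median), with a median of -0.4. Cacna2d3 fell from 8.27 ± 0.181 to 5.5 ± 0.222 (limma adjusted p = 1.58e-06), Cacnb2 from 7.48 ± 0.105 to 5.78 ± 0.273 and the pore gene Cacna1d from 10.44 ± 0.179 to 9.5 ± 0.268. All CD90+ values of Cacna2d3 and Cacnb2 lay below the negative control median, so the sizes of their falls are not exact. Cacna2d1 rose by 0.47. Of 4 tested extrusion genes, 2 fell and 0 rose (0 higher by limma at an unadjusted p under 0.05), with a median of -0.79. The sodium-calcium exchanger gene Slc8a1 fell from 10.64 ± 0.0946 to 9.12 ± 0.0872 and the surface pump gene Atp2b1 from 12.93 ± 0.171 to 11.83 ± 0.103 (limma adjusted p = 1.85e-06 and 5.51e-05). Slc24a3 had a difference of -0.47 and was not called (limma adjusted p = 0.248), but was called without array 14 (difference -0.76, limma adjusted p = 0.0157) and without arrays 13 and 14 (-0.61, limma adjusted p = 0.00781), making 3 falls in this list. With all 8 arrays kept, a term for arrays 13 and 14 also gave a call (-0.47, limma adjusted p = 0.0225), as did weighting the arrays (-0.61, limma adjusted p = 0.0381).

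Of 10 tested genes of mitochondrial calcium uptake, 5 fell and 1 rose, with a median of -0.19. Micu2, a gatekeeper of the uniporter, fell from 10.82 ± 0.154 to 10.09 ± 0.173, and Vdac1, an outer membrane channel, by 0.43 (limma adjusted p = 0.00113 and 0.00063). Mcur1, a regulator of the uniporter, rose by 0.4. Vdac3 was at 13.17 ± 0.0671 and 13.22 ± 0.0508 and was not called. The count of falls was 3 without array 16 or 18, and 2 after another quantile normalization.

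**Figure D2:**
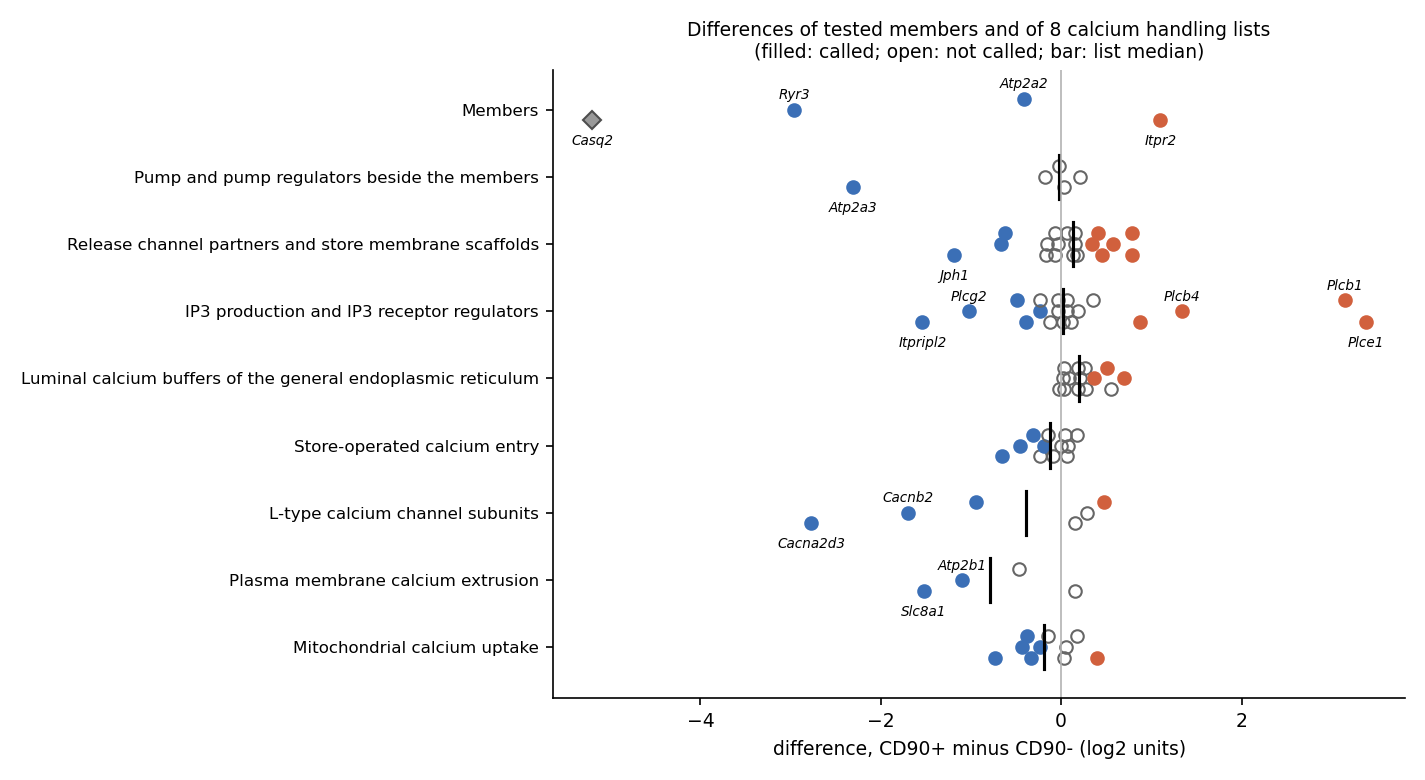
Differences between populations (CD90+ minus CD90-, log2 units, horizontal axis) of the 4 tested members and of the tested genes of 8 lists (rows). Blue points were called lower, orange points higher and open points not called. A grey diamond marks Casq2 and a bar each list's median. Colours follow the fit with the filter, also for Ryr3, Plcg2 and Orai2, which passed it through their CD90- arrays alone. The call of Ryr3 in that fit is not used. Genes are named where the difference exceeds 1 in size, and all members are; Ryr3 at -2.96 lies near Cacna2d3 at -2.77, and Itpr2 at 1.1 lies on the side of Plcb1 and Plce1.

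The genes most like Casq2 and Ryr3 were found by the root mean square difference over the 8 arrays, after each gene was centred on its own mean. Much of this measure is the difference between populations, so the medians given below follow from the differences of Casq2 and Ryr3 themselves. A value far under the median shows a similar difference between populations and little more. For Casq2 they were Slc6a11 (0.6), Wnt5a (0.65), Tspan13 (0.67), Glp2r (0.69) and Rerg (0.69), against a median of 2.71 over all genes tested. Slc6a11, a GABA transporter gene, was at 7.78 on array 14 and between 6.44 and 6.97 on the other CD90+ arrays, and so was highest there as Casq2 was. Glp2r, the receptor gene for glucagon-like peptide 2, was at 5.62 on array 14, level with array 20. For Ryr3 the nearest were Gnai1 (0.18), Spats2l (0.18), Iqschfp (0.2), Fat1 (0.2) and Papln (0.21), against a median of 1.49. Gnai1, an inhibitory G protein subunit gene, fell from 14.43 ± 0.197 to 11.31 ± 0.113, and Fat1, an atypical cadherin gene, from 14.34 ± 0.121 to 11.26 ± 0.0856. Iqschfp is a readthrough of neighbouring genes, so its value may hold their signal. Casq2 and Ryr3 themselves differed by 1.33 in this measure, close to the median of 1.49 for Ryr3 and under that of 2.71 for Casq2.

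**Figure D3:**
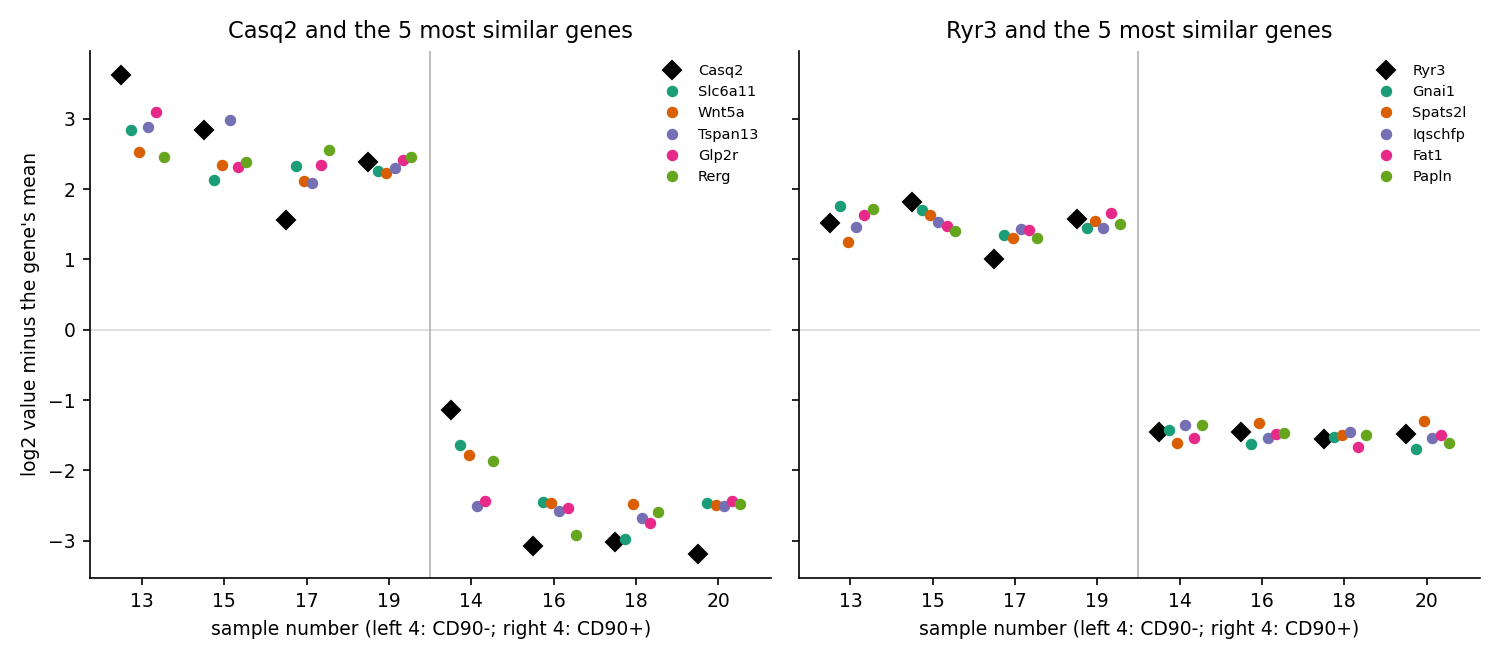
Log2 values minus each gene's own mean on the 8 arrays for Casq2 (left, black diamonds) and Ryr3 (right, black diamonds) with the 5 genes of most similar profile (coloured points). Casq2 spreads more than its neighbours, highest on array 13 and, within CD90+, on array 14, while Ryr3 and its neighbours sit within narrow bands in each population.

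Markers of other cell types that use calcium stores were set beside Casq2. All 10 smooth muscle markers had their highest CD90+ value on array 14, as Casq2 did. Their list mean was 10.23 on array 14 and 8.97 to 9.02 on the other CD90+ arrays, and 9.52 to 10.1 on CD90- arrays, so the populations overlapped. Of the 10, 4 rose and 5 fell. Myh11, the smooth muscle myosin gene, was at 12.58 on array 14 and 10.83 to 10.87 on the other CD90+ arrays, and was not called between populations (difference 0.31, limma adjusted p = 0.637; -0.12 without array 14). Cnn1 rose, from 6.74 ± 0.495 to 8.52 ± 0.761, while Acta2 fell from 15.99 ± 0.106 to 13.86 ± 0.858 and Mylk, the kinase gene that starts contraction, from 10.4 ± 0.0581 to 7.79 ± 0.708. None of the 10 was below the negative control median on all 8 arrays. Cnn1 was above it on only 1 CD90- array, so the size of its rise is not exact. Casq2 had the same direction and a larger difference without array 14, and the part of smooth muscle RNA in its level on that array was not tested.

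The 3 measured markers of interstitial cells of Cajal had a list mean of 9.97 on array 13, 8.09 to 8.22 on the other CD90- arrays and 6.89 to 7.42 on CD90+ arrays. Kit, which marks these cells, was at 10.56 on array 13 and 6.63 to 7.49 on the other CD90- arrays, and was not called (limma adjusted p = 0.405). Thbs4, another of the 3, was at 7.99 on array 13 and 6.76 to 8.03 on the other CD90- arrays, so it did not stand out there. Its difference was 0.01 (limma adjusted p = 0.985). Ano1, the calcium-gated chloride channel gene of the pacemaker current, fell from 10.26 ± 0.757 to 7.03 ± 0.531 (limma adjusted p = 0.000338). Ano1 was at 11.37 on array 13 and 9.68 to 10.07 on the other CD90- arrays. Casq2 was also highest on array 13, and was between 10.54 and 11.81 on the other CD90- arrays. Markers of other types were highest there too among CD90- arrays: 8 of 10 of smooth muscle, 6 of 6 of epithelium and 4 of 6 of endothelium. Fewer were in other lists: 4 of 8 of pericytes, 3 of 7 of fibroblasts and 3 of 7 of enteric glia. It was 1 of 11 for striated muscle, 1 of 6 for enteric neurons and 1 of 7 for leukocytes. The epithelial list mean was 9.12 on array 13 and 7.06 to 7.82 on the other CD90- arrays, and 7.4 to 9.2 on CD90+ arrays. The endothelial list mean was 6.79 on array 13, 6.11 to 6.39 on the other CD90- arrays and 6.37 to 6.95 on CD90+ arrays. Of 5 tested endothelial markers, 1 rose and 1 fell, and Cdh5, Kdr and Vwf lay below the negative control median on all 8 arrays. Pericyte markers had list means of 7.81 to 8.06 on CD90- and 7.17 to 7.42 on CD90+ arrays; of 6 tested, 2 rose and 3 fell, and Notch3, Higd1b and Ndufa4l2 lay below the negative control median on all 8 arrays. All 7 measured markers of enteric glia were called higher, Gfap after passing the filter through its CD90+ arrays alone (in the fit without a filter, difference 1.05, limma adjusted p = 0.00896). They had list means of 5.44 to 5.81 on CD90- and 7.14 to 8.35 on CD90+ arrays, with Foxd3 below the negative control median on all 8 arrays. Leukocyte markers had list means of 5.22 to 5.46 and 5.49 to 5.98, with 5 of 7 below the negative control median on all 8 arrays. Of 4 tested, 3 were called higher and 0 lower. Enteric neuron markers had list means of 4.88 to 4.89 and 5.1 to 5.28, with all 6 measured below that median on all 8 arrays. The 2 tested, Uchl1 and Ret, were called higher. Ret passed the filter through its CD90+ arrays alone (in the fit without a filter, difference 0.82, limma adjusted p = 0.000353). Glia, leukocyte and neuron list means were thus higher on CD90+ arrays, as were Itpr2, Plcb1 and Plce1. The part of these cell types in the values of the store and calcium handling genes was not tested.

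Of 11 measured striated muscle markers, 8 lay below the negative control median on all 8 arrays, among them Actn2, Myh6, Myh7, Myh1, Myh4 and Ckm. The list mean was 5.38 to 5.48 on CD90- and 5.38 to 5.43 on CD90+ arrays. Tnnt3, a fast muscle troponin gene, was above that median on 7 of 8 arrays, rising from 6.88 ± 0.0661 to 7.29 ± 0.108 (limma adjusted p = 0.00325), Acta1 on 3 and Tnnt2 on 1. Tnni2, also among those 8 markers, passed the filter through its CD90- arrays alone. In the fit without a filter its difference was -0.68 (limma adjusted p = 0.00219), at signals below that median throughout.

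**Figure D4:**
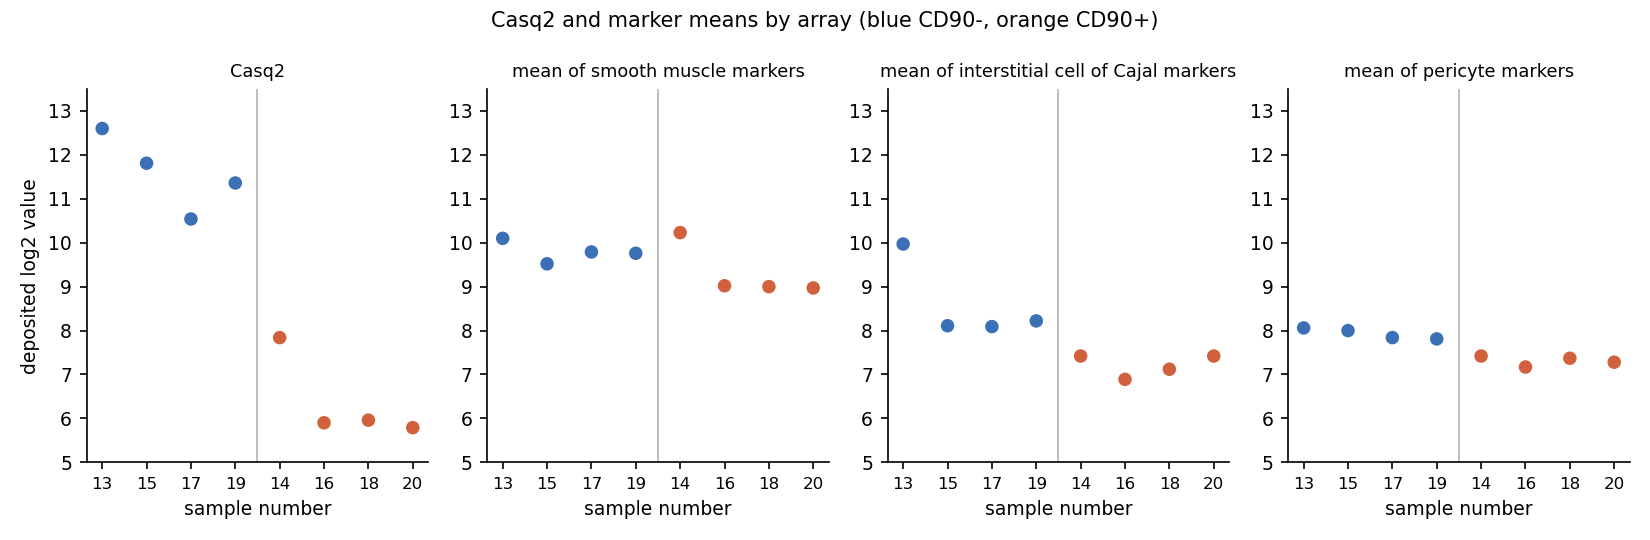
Deposited log2 values of Casq2 and the mean log2 values of 10 smooth muscle, 3 interstitial cell of Cajal and 8 pericyte markers on each array (blue CD90-, orange CD90+). Array 14 is the highest CD90+ array for Casq2 (7.84) and for the smooth muscle mean (10.23), and array 13 is the highest CD90- array for Casq2 (12.6) and for the Cajal mean (9.97).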

How the data were processed

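Each of the 8 samples of sorted colon fibroblasts was hybridised to a one-colour Affymetrix mouse array, 4 per population, from 2 ng of amplified RNA per the labels' protocols. The authors deposited log2 values, made with Affymetrix Expression Console 1.1 and RMA per the submitters' processing notes; the settings and the array's genome build are not given in the sources used here. RMA equalises the distributions of the arrays, so a change in total RNA is not seen. The table held 65956 transcript clusters and 6732 control rows. By the platform annotation, 31284 clusters carried 1 gene name, 1466 more than 1, and 33206 no name; symbols were updated through RefSeq (GRCm38.p6). A gene was taken as its cluster with the highest mean, and had to reach 5.36 on 4 of 8 arrays. Fits used limma 3.58.1 (lmFit, eBayes, two-sided, Benjamini-Hochberg over 17260 genes, threshold 0.05, no block) in R 4.3.3. The fit was tested on simulated data of 17260 genes, with 67, 67 and 66 genes changed by 0.5, 1 and 2 (log2). Of these, 49.3%, 88.1% and 97% were called in the right direction, and 10 of all 166 calls were of unchanged genes. Far fewer genes were changed there than the 29.7% called in the data, and the simulated arrays were drawn independently. The rates may therefore not hold for these data. Genes named were the 10 members, from each list up to 3 genes with the smallest p and the 1 with the highest mean, and the 5 genes most similar to each of the 2 members with the largest differences; predicted genes, RIKEN clones and small RNAs were skipped there. The members and lists were chosen with earlier results of these data known. Array numbers limit the precision. Alternatives changed the filter, normalization, variance model, array weights, row choice and the arrays used. Python 3.11.15, pandas 2.3.3 and matplotlib 3.10.9 were used.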

Additional observations from a re-analysis of the deposited data

Results flagged for a closer look

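The groups of 4 arrays looked at numbered 118 (genes named by the rule or marked as added, and marker means). In 10 of them, the gap of an array to the nearest other, over the group's range, passed the 95% critical value of Dixon's test. Chance gives about 1 in 20 groups. Jph1, Plce1, Myh11 and Cnn1 below were named after their values were seen, and Myh11 and Cnn1 also enter the smooth muscle mean. The count of 10 therefore does not measure an excess over that rate. All 10 concerned array 13 or 14. In CD90+ cells, array 14 was set apart by Casq2 at 7.84 (others 5.79 to 5.96), Jph1 at 6.94 (6.27 to 6.36), Micu2 at 10.35 (9.98 to 10.02), Myh11 at 12.58 (10.83 to 10.87), Cnn1 at 9.65 (8.01 to 8.28) and the smooth muscle marker mean at 10.23 (8.97 to 9.02). In CD90- cells, array 13 was set apart by Plce1 at 7.4 (6.01 to 6.19), Saraf at 11.04 (10.78 to 10.81), Cnn1 at 7.48 (6.46 to 6.53) and the mean of the Cajal cell markers at 9.97 (8.09 to 8.22).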

How the results depend on the processing

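Under 18 alternatives, Itpr2 and Atp2a2 were called in every setting, except Atp2a2 after another quantile normalization (difference -0.4, limma adjusted p = 0.169). Ryr3 missed the filter in the 5 settings that left out a CD90- array. The difference of Casq2 ran from -5.69 to -4.86, of Ryr3 from -3.01 to -2.94 in the 13 settings that tested it, of Itpr2 from 1.05 to 1.16 and of Atp2a2 from -0.46 to -0.38. The counts over all genes stayed within 1.5 times the reported ones, from 1852 to 3132 higher and from 1947 to 3899 lower, but their balance moved: 2018 higher and 3318 lower with arrays centred on their median, and 2328 and 2222 after another quantile normalization. Of 795 values of 49 named genes under the alternatives, 775 kept their direction and side of the threshold, 11 lost a call and 6 gained one. The other 3 turned sign, in genes not called: Stim2 (-0.01 without array 16, with a range of -0.01 to 0.12 when 1 array was left out) and Myh11 (-0.12 without array 14, with a range of -0.12 to 0.47, and -0.02 with array weights). The cause was not tested. No paired analysis was possible because each array has a number of its own and no label ties arrays to mice; a term for arrays 13 and 14 against the rest, which is no pairing, gave 2822 higher and 3227 lower calls. Signals near the negative control rows limit what can be said of Casq1, Ryr1, Ryr2, Pln and of the CD90+ values of Casq2 and Ryr3.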
